A study of Homo sapiens with 20 samples.

Results

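The genes for L1, contactin and NCAM cell adhesion molecules were followed through 18 days in which human neural progenitors were differentiated towards neurons. There are 10 such genes: L1CAM, CHL1, NRCAM and NFASC of the L1 family, the contactins CNTN1, CNTN2, CNTN3 and CNTN4, and NCAM1 and NCAM2. They were chosen by name, as the coding gene records that carry each symbol. Each symbol had 1 coding record and none of the 10 records was merged with another gene. They make up 10 of 20237 coding records and of 38369 records in all, the other 18132 being long intergenic noncoding RNAs (lincRNAs).

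The cells were neural progenitors made from H1 cells, an established line of human embryonic stem cells, so that all cultures share a genome. Day 0 cultures were taken on Matrigel in medium with the growth factor FGF, which keeps progenitors dividing. Differentiation was started by withdrawing FGF and supplying BDNF, a neurotrophic factor, and cultures were taken on days 1, 2 and 4 on the same coating. Cultures for days 5, 11 and 18 were lifted at day 4 and replated on poly-D-lysine and laminin, and the interval between days 4 and 5 thus includes a replating onto a new surface. The labels give 20 polyA RNA samples, with 3 cultures on each day and 2 on day 5, where the submitters removed an outlier. The deposited expression is given in FPKM (fragments per kilobase of transcript, scaled to the mapped fragments), a measure that allows for gene length. Each gene has 1 value a day, an estimate over the cultures of that day. There is therefore no spread between cultures, no test and no depth behind a value, and each difference is given as a size only.

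These molecules sit on the neuronal surface and are built from immunoglobulin-like and fibronectin-like domains. L1 family proteins cross the membrane and hold on to the spectrin skeleton through ankyrins, contactins are tied to the membrane by a lipid anchor and work with partners beside them, and NCAM exists in both forms. They are known for guiding and bundling axons, for building the axon initial segment and the node of Ranvier, and, in NCAM, for carrying polysialic acid, a bulky sugar chain that loosens adhesion.

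The summed FPKM of all records went from 413978 on day 0 to 251156 on day 18, and the median coding record (among those averaging 1 FPKM or more) was lower on day 18 by 0.6 on the log2(FPKM + 0.1) scale (a change of -0.60). Changes are therefore given as deposited and, where stated, relative to that median. Of 8 neuronal markers 7 had a record, and their summed FPKM went from 549 to 1630. On day 18, 6 of the 7 were at least 2-fold above day 0, against 7.57% of coding records averaging 1 FPKM or more. The 7 progenitor markers went from 3790 to 1800 in sum, of which VIM alone made up 2950 and 1490. At least 2-fold lower were 3 of them, against 29.9% of coding records, and relative to the median 2, against 12.1%. PAX6 was 2-fold or more higher. The defining markers of oligodendrocytes were near 0, with OLIG1, OLIG2 and SOX10 at no more than 0.196 FPKM on any day, and GFAP of astrocytes did not exceed 0.186. Among the other astrocyte markers, AQP4 reached 0.342 and ALDH1L1 0.0364 at most, whereas S100B had 8.68 FPKM on day 0, 0.593 on day 2 and 4.25 on day 18. SLC1A3, of astrocytes and radial glia, went from 16.2 to 63.1, the 4 Schwann and neural crest markers from 0.516 to 3.03 in sum, and the 4 mesenchymal markers from 606 to 50.6 in sum, with COL1A1 listed at 0 on every day. The part of these cell types in the values of the adhesion genes was not tested. In RNA from whole cultures, fewer cells of a type and less RNA per cell cannot be told apart.

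The bases before the start of NFASC and NRCAM are shown because these relatives, both known from the axon initial segment and the node, had the most different courses among the L1 genes that were already above 1 FPKM on day 0. RefSeq's promoter table (GRCh38.p14) held 9 of the 10 genes and NCAM1 was not matched. Each of the 9 windows of 250 bases occurred once in GRCh37, the build of the deposited coordinates. The NFASC window lies at chr1:204797530-204797779 on the plus strand and the deposited record starts 2 bases from its RefSeq start. The NRCAM window lies at chr7:108096881-108097130 on the minus strand, with a record start 54 bases from the RefSeq start. Neither window overlaps an exon of its record, and capitals mark GGGCGG or its reverse complement CCGCCC, the GC box.
NFASC: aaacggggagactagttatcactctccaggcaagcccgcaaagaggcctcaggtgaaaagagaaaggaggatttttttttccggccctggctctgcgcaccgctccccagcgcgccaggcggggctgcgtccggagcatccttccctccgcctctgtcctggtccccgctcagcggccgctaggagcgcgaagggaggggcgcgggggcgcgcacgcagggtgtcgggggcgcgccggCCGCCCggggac
NRCAM: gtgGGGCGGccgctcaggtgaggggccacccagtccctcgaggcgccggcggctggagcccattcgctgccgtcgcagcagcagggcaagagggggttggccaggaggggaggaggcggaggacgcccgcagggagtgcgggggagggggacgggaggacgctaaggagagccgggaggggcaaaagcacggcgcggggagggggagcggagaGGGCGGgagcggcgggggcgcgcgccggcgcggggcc
Both windows are rich in CG pairs, with 27 in NFASC and 29 in NRCAM against a median of 11 over 27303 promoters, and hold 69.6% and 78.4% G and C against a median of 58.0%. The GC box occurred in 5 of the 9 windows, those of L1CAM, NRCAM, NFASC, CNTN3 and CNTN4, and in 42.3% of all promoters. CAGCTG, a letter pattern of the E-box, was found in L1CAM alone and in 13.8% of all promoters, and CAGATG, another E-box pattern, likewise in L1CAM and in 12.2%. TATAAA was in none of the 9 windows and in 11.1% of all. Both strands were searched, and CAGCTG reads the same on each. Among the other windows, that of CNTN3 lay 93467 bases from any start in its record, and those of CHL1, CNTN1, CNTN2 and NCAM2 overlapped exons of theirs by 42 to 245 bases, and they are not printed.

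The adhesion genes were higher in the late cultures. On day 18, 8 of the 10 stood at least 2-fold above day 0 on the log2(FPKM + 0.1) scale, namely CHL1, NCAM1, NFASC, CNTN2, CNTN1, CNTN4, NCAM2 and CNTN3, against 7.57% of the 11793 coding records that averaged 1 FPKM or more over the days. None was at least 2-fold lower, while 29.9% of coding records were. L1CAM was 1.64 times its day 0 value and NRCAM was level. The median change of the 10 genes was 1.85 on that scale, or 2.45 relative to the median record. Relative to it, 9 of the 10 were at least 2-fold higher, against 14.7% of coding records, and NRCAM's change of -0.00 became 0.60. At 4-fold on the log2(FPKM + 0.1) scale, a threshold added after the values were seen, 4 genes were counted as higher, against 3.21% of coding records. They were CHL1, NCAM1, NFASC and CNTN2. CNTN1 was 4.13 times its day 0 value in FPKM, but with the added 0.1 its change was 1.94, short of 4-fold. CNTN3 had a mean of 0.747 FPKM, below the filter used for the background, and CHL1 and CNTN1 were under 1 FPKM on day 0 and passed that filter through their later days.

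Among the L1 genes, the founding member L1CAM, a receptor of axon growth and bundling, was present from the beginning. Its FPKM was 24.9 on day 0, 16.4 on day 1, 28.4 on day 2, 16.4 on day 4, 27.6 on day 5, 29.9 on day 11 and 40.7 on day 18. The days before day 11 swing between low and high, and day 18 is the highest. The change from day 0 to day 18 was 0.71 on the log2 scale and 1.31 relative to the median record, so it passes 2-fold only on the relative scale. CHL1, the close homologue of L1 that is known in neurite growth and cell migration, was nearly silent at first. It stood at 0.458 FPKM on day 0, 0.471 on day 1, 0.593 on day 2, 1.04 on day 4, 1.78 on day 5, 6.78 on day 11 and 14.4 on day 18. Each day is above the one before, and the last value is 31.4 times the first, which ranks 26 among the changes of the 11793 coding records.

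NRCAM, which gathers channels and ankyrin at nodes and initial segments and also acts in axon guidance, was the most abundant of the 10 genes on the days up to day 5. Its FPKM was 43.3 on day 0, 30.8 on day 1, 33.4 on day 2, 35.1 on day 4, 42.0 on day 5, 44.3 on day 11 and 43.2 on day 18. Its highest and lowest days differ 1.44-fold, the narrowest span of the 10, with the low on day 1. NFASC, or neurofascin, whose neuronal form anchors the initial segment and whose glial form sits beside the node, had 2.46 FPKM on day 0, 3.82 on day 1, 4.57 on day 2, 6.73 on day 4, 12.0 on day 5, 21.4 on day 11 and 22.2 on day 18. The day 18 value is 9.0 times that of day 0, and 96.0% of that distance had been covered by day 11. Values per gene do not tell the neuronal from the glial form.

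The summed FPKM of the 4 contactins of the group started below that of the L1 genes, at 7.76 against 71.0, and these contactins took different courses. CNTN1, the contactin that pairs with CNTNAP1 beside nodes, had 0.937 FPKM on day 0, 0.555 on day 1, 0.587 on day 2, 0.884 on day 4, 1.32 on day 5, 2.19 on day 11 and 3.87 on day 18. Days 1, 2 and 4 lie below day 0, and day 18 is 4.13 times day 0. CNTN2, also called TAG-1 and known from newly growing axons, had 4.87 FPKM on day 0, 5.74 on day 1, 8.22 on day 2, 15.4 on day 4, 27.2 on day 5, 75.7 on day 11 and 28.0 on day 18. Day 11 stands 15.5-fold above day 0 and 2.71-fold above day 18, where the gene was back near its day 5 value. Only 29 of 11793 coding records (0.246%) had day 11 as their highest day and stood there at least 2-fold above both day 0 and day 18. This count was made after the values were seen, and CNTN2 was the only one of the 10 genes among those records.

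CNTN3 and CNTN4, contactins of the brain whose roles are less well known, differed from day 0 early. CNTN4 had 1.59 FPKM on day 0, 3.14 on day 1, 3.97 on day 2, 3.46 on day 4, 4.39 on day 5, 6.41 on day 11 and 5.65 on day 18. The first step was its largest, 0.93 on the log2 scale, and day 18 is 3.54 times day 0. CNTN3 had 0.365 FPKM on day 0, 0.713 on day 1, 0.679 on day 2, 0.923 on day 4, 0.793 on day 5, 0.855 on day 11 and 0.904 on day 18. It stayed under 1 FPKM on every day, and its ratio of 2.48 rests on the low value of day 0. With a pseudocount of 1 its change is 0.48 on the log2 scale, no longer 2-fold.

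NCAM1, the neural cell adhesion molecule and the main carrier of polysialic acid in the brain, became the most abundant of the genes. Its FPKM was 9.31 on day 0, 12.6 on day 1, 16.6 on day 2, 23.7 on day 4, 38.8 on day 5, 90.3 on day 11 and 133 on day 18. Every day is above the day before, the last value is 14.3 times the first, and the gene moved from rank 6902 to rank 179 of the 20237 coding records. NCAM2, its relative in olfactory and other axons, had 2.26 FPKM on day 0, 1.22 on day 1, 1.59 on day 2, 1.93 on day 4, 2.11 on day 5, 2.83 on day 11 and 5.70 on day 18. It lay below day 0 from day 1 through day 5, and its ratio of 2.52 comes mostly from the last step, since only 16.3% of the distance to day 18 had been covered by day 11.

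**Figure D1:**
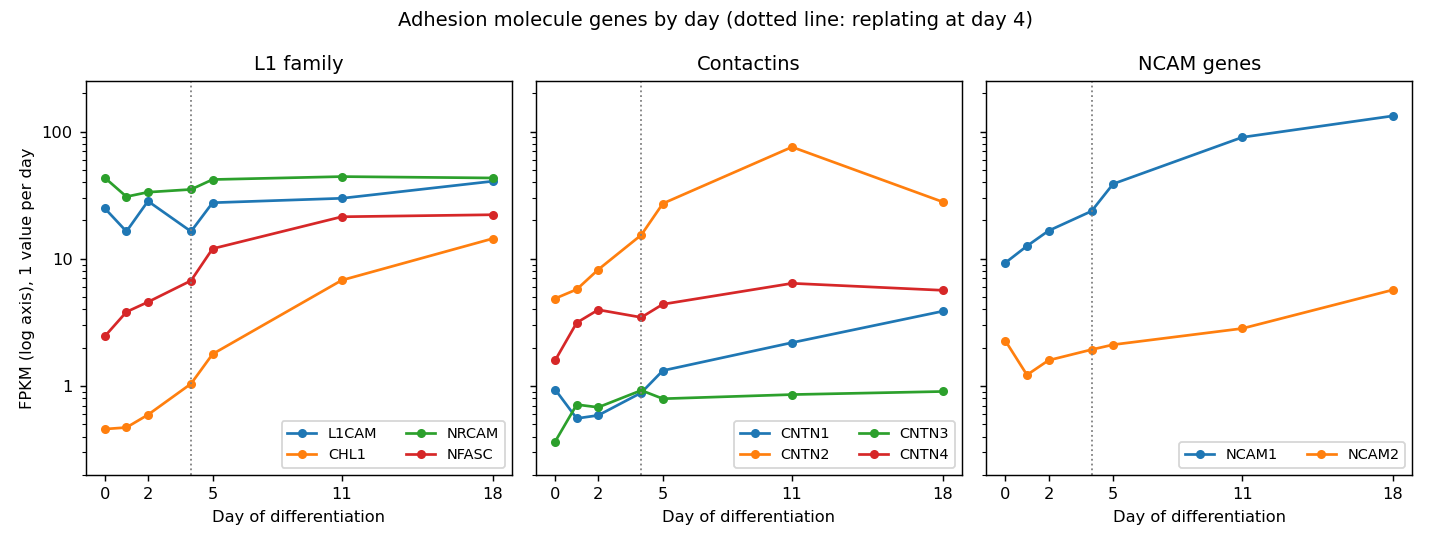
FPKM (log axis) of the 10 genes against the day of differentiation, 1 deposited value a day with no error bar, in panels for the L1 family, the contactins and the NCAM genes, the dotted line marking the replating at day 4. NCAM1 climbs from 9.31 to 133 and CHL1 from 0.458 to 14.4, NRCAM stays between 30.8 and 44.3, and CNTN2 peaks at 75.7 on day 11.

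The make-up of the group turned over. NRCAM and L1CAM led on day 0 with 47.9% and 27.5% of the summed FPKM of 90.4. On day 18, NCAM1 led with 44.7% of a sum of 298, and NRCAM and L1CAM held 14.5% and 13.7%. On day 11 NCAM1 (32.2%) and CNTN2 (27.0%) came before NRCAM (15.8%). The summed FPKM of the L1 family went from 71.0 on day 0 to 120 on day 18, that of the NCAM genes from 11.6 to 139, and that of the contactins from 7.76 to 85.1 on day 11 and 38.4 on day 18. The order from high to low on day 18 was NCAM1, NRCAM, L1CAM, CNTN2, NFASC, CHL1, NCAM2, CNTN4, CNTN1 and CNTN3. Neighbours such as NRCAM and L1CAM (43.2 and 40.7) or NCAM2 and CNTN4 (5.70 and 5.65) lie close, and with 1 value a day none of the neighbours can be set against a spread. By their highest day, 6 genes peaked on day 18, 3 on day 11 (NRCAM, CNTN2 and CNTN4) and CNTN3 on day 4.

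**Figure D2:**
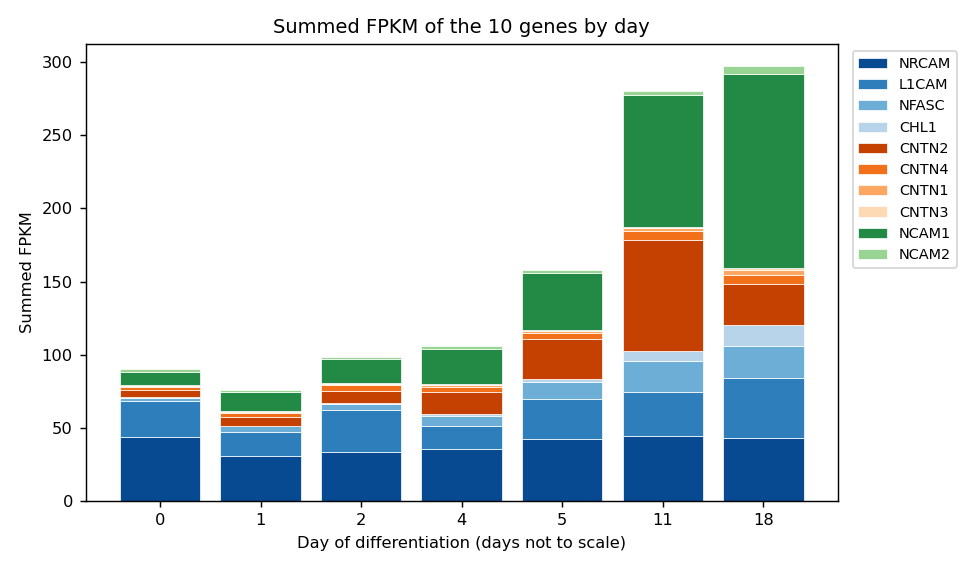
Summed FPKM of the 10 genes on each day, with stacked segments for the genes (blue for the L1 family, orange for contactins, green for NCAM). The sum goes from 90.4 on day 0 to 298 on day 18, NCAM1 fills 44.7% of the last bar, and the CNTN2 segment is widest on day 11.

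Step by step, the genes went both ways on the day after FGF withdrawal. From day 0 to day 1, 6 genes were higher, against 40.3% of coding records. The 4 lower ones were L1CAM, NRCAM, CNTN1 and NCAM2. None passed 2-fold in either direction as deposited, against 3.60% of coding records higher and 3.09% lower, although CNTN4 did relative to the median record, with 1.04 on the log2 scale, against 4.66% of coding records. From day 4 to day 5, across the replating, 9 genes were higher, against 32.0% of coding records, and CNTN3 alone was lower. The median change was 0.62 beside -0.07 for coding records. The values do not separate the replating from the passing of time. From day 5 to day 11 all 10 were higher, against 28.7% of coding records. CHL1, CNTN2 and NCAM1 were at least 2-fold higher, against 1.80%. None was 2-fold lower, against 4.24%.

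From day 11 to day 18 the genes parted again. CHL1 was 2.12-fold higher, against 0.839% of coding records at least 2-fold higher, and CNTN2 was 2.71-fold lower, against 3.72% at least 2-fold lower. NCAM2 had a change of 0.99 on the log2 scale and CNTN1 one of 0.79, and NRCAM and CNTN4 were slightly lower (-0.04 and -0.18). Relative to the median record, which changed by -0.28 at this step, NRCAM and CNTN4 were above 0, CNTN2 remained lower, at -1.16, and 3 genes rather than 1 were at least 2-fold higher, CHL1 (1.35), NCAM2 (1.26) and CNTN1 (1.07), against 1.83% of coding records. Over the 6 steps, 3 of the 10 genes had a step of at least 2-fold on that scale as deposited, against 14.2% of coding records. Relative to the median record of each step, 6 did, with CNTN1, CNTN4 and NCAM2 added, against 12.7%. By day 5, NFASC had covered 48.4% of its distance to day 18, NCAM1 23.8%, CNTN1 13.2% and CHL1 9.5%.

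**Figure D3:**
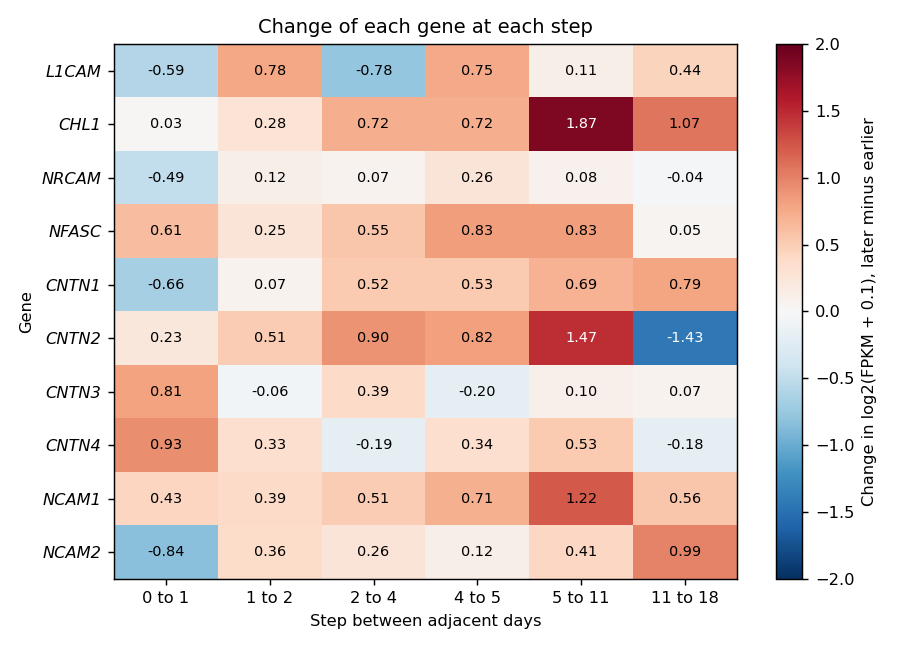
Change in log2(FPKM + 0.1) of each gene (rows) at each of the 6 steps between adjacent days (columns), later minus earlier day, red for higher and blue for lower. CHL1 and CNTN2 have the largest positive steps from day 5 to day 11 (1.87 and 1.47), and CNTN2 the largest negative one from day 11 to day 18 (-1.43).

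The swings of L1CAM, low on days 1 and 4 and high on days 2 and 5, were noticed after the values were seen. Over the first 4 steps 826 of 11793 coding records (7.0%) went lower, higher, lower and higher in turn, and 10 of them (0.0848%), L1CAM included, by at least 0.5 on the log2 scale at each step. Among the others were TAGLN, ITGA3, TFPI2, FABP3, IL11, EMILIN2, VGF and a record that merges CCDC19 and TAGLN2. TAGLN, an actin-binding protein of smooth muscle and fibroblasts, went from 367 to 106, 226, 92.4 and 147 FPKM over those days and stood at 19.4 on day 18. The others were all lower on day 18 than on day 0, whereas L1CAM was higher. Whether the swings exceed the difference between cultures of a day was not tested.

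Over the 7 days, log2 values of the genes mostly moved in the same direction. Of the 45 pairs, 44 had a positive Pearson r with a median of 0.75, a description over 7 days that share a trend. NCAM1 was closest to CHL1 and to NFASC, each with r = 0.99, and NRCAM and CNTN3 were the pair with a negative r, -0.10. The coding records most like NFASC were KLHL1 (r = 0.9984), the splicing factor gene SRRM4 (r = 0.9968) and DCX, the microtubule protein doublecortin that also binds neurofascin (r = 0.9962). Those most like NCAM1 were POU2F2, MAB21L2 and ASXL3, and those most like CHL1 were ODZ1, a record merging GLRA2 and GLRA3, and CALB2. CNTN1 came with KIF21B, CD24 and CD200, CNTN4 with KLHL24, C20orf194 and ZNF627, and NCAM2 with ARG2, PPP3CA and NECAP1. CNTN2 came with TAGLN3, MBD5 and HSPA12A, and NRCAM with FAM36A, GAP43 and C3orf50. L1CAM had the fewest close records of the 9 genes compared, with STX12 (r = 0.9273), TRIB1 and MADD nearest and no record at r of 0.95 or more, whereas 392 records (3.33%) reached that for NCAM1.

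The records lie where these genes are annotated, with 93.0% of their 569 exon edges in GENCODE's GRCh37 annotation. The share was lower for NCAM2 (81.0%) and NCAM1 (85.5%), with CNTN1 next lowest at 92.3%. On chromosome 1, NFASC (chr1:204797782-204991949) and CNTN2 (chr1:205012065-205047136) follow each other on the plus strand with 20115 bases between them. They shared the climb to day 11 and parted after it, NFASC at 22.2 and CNTN2 at 28.0 on day 18 after 21.4 and 75.7. On the short arm of chromosome 3, CHL1 (chr3:238650-451095), CNTN6 (chr3:1134620-1445277) and CNTN4 (chr3:2140550-3099644) stand in a row on the plus strand, 684 and 695 kb apart. CNTN6, a contactin outside the 10 that is known as NB-3, took another course. It had 6.22 FPKM on day 0, 18.3 on day 1, 21.3 on day 2, 20.3 on day 4, 14.2 on day 5, 8.84 on day 11 and 4.62 on day 18. It was high early, when CHL1 was low, and its change to day 18 of -0.42 turns to 0.18 relative to the median record. The other records lie at chrX:153126974-153151584 on the minus strand (L1CAM), chr7:107788084-108096826 on the minus strand (NRCAM), chr12:41086358-41464094 (CNTN1), chr3:74311722-74570343 on the minus strand (CNTN3), chr11:112831995-113149157 (NCAM1) and chr21:22370633-22911214 (NCAM2).

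**Figure D4:**
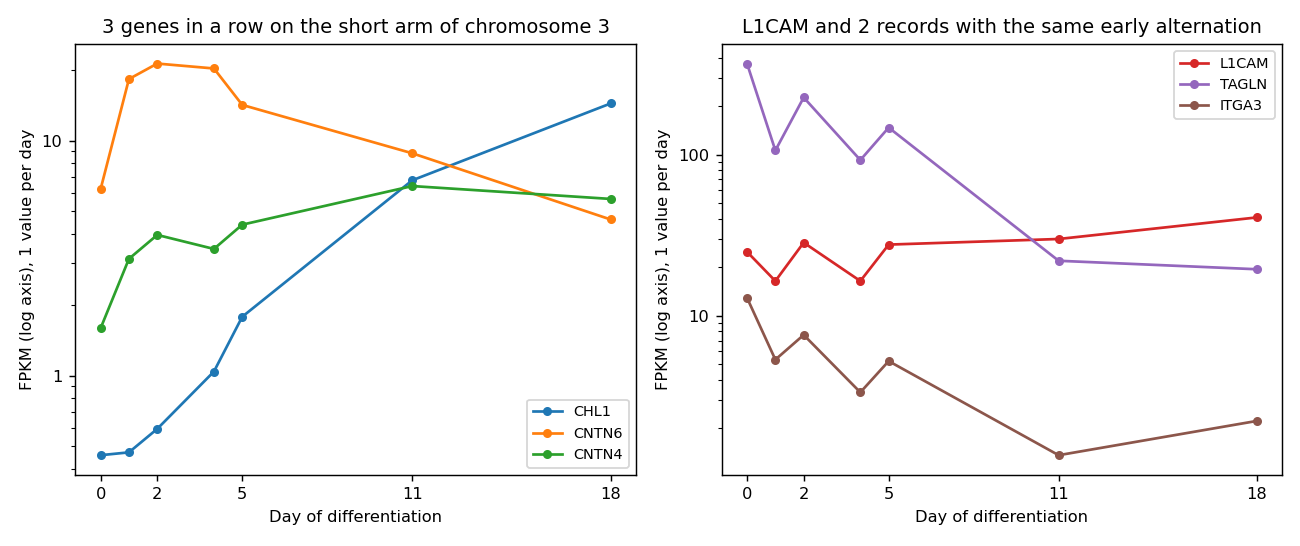
FPKM (log axes) by day, 1 deposited value a day. Left, CHL1, CNTN6 and CNTN4, which follow each other on chromosome 3, with CNTN6 highest on day 2 (21.3) and CHL1 on day 18 (14.4). Right, L1CAM with TAGLN and ITGA3, which share its early swings and are lower on day 18 than on day 0 while L1CAM is higher.

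Several of the genes share exon bases with a lincRNA on the opposite strand. The study reports default options for alignment and expression, whose library type is unstranded. For NFASC the overlap is large, since linc-NFASC-AS shares 9408 bases, 53.4% of the exon bases of NFASC. That lincRNA was listed at 0.248 FPKM on day 0, 2.18 on day 11 and 2.83 on day 18, and how reads were divided between the strands cannot be told from the values, so those of NFASC are uncertain to that extent. A linc-NRCAM-AS record shared 13.3% of the exon bases of NRCAM and stood at 0.152 and 0.691 FPKM on days 0 and 18. linc-CHL1-BP shared 5.4% of those of CHL1 and went from 0.0529 to 1.69 FPKM, and an unnamed record opposite NCAM1 shared 3.4% and went from 0.143 to 1.48. The lincRNAs opposite CNTN1 and CNTN3 were listed at 0 on every day.

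Partners of these molecules were counted by lists. The shares of 7.57% and 29.9% of coding records at least 2-fold higher or lower on day 18 hold for records averaging 1 FPKM or more, and so each count is also given over the list members above that mean. Relative to the median record, the shares are 14.7% and 12.1%. The most abundant 3 of each list are given with values, and further names were picked after their values were seen. Of 14 other contactins and immunoglobulin adhesion genes, 7 were at least 2-fold higher and 1, THY1, lower, from 15.7 to 2.25 FPKM. Among the 11 averaging 1 FPKM or more, 4 were higher and 1 lower, and these counts are the same relative to the median record. CADM3, a synaptic adhesion gene, went from 1.92 to 21.2, whereas CADM4 (44.4 to 55.1), CADM1 (38.0 to 36.0) and ALCAM (28.8 to 26.2) stayed within 2-fold, the last pair with changes of -0.08 and -0.14 that turn positive relative to the median record. CNTN5, the remaining contactin, was listed at 0.034 FPKM on day 0 and 1.05 on day 18.

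Of 12 membrane partners, 2 were higher and 4 lower, and of the 11 averaging 1 FPKM or more 1 and 4. Relative to the median record only 2 were lower, CNTNAP2 and CNTNAP3. CNTNAP5, a relative of the contactin partner CNTNAP1, went from 0.246 to 8.79 FPKM, and CNTNAP2, a partner of CNTN2 at the juxtaparanode, from 43.7 to 14.0. CNTNAP1 itself had 7.66 FPKM on day 0 and 5.52 on day 18 while CNTN1 was 4.13-fold higher. The abundant partners APP (227 and 197) and PTPRZ1 (127 and 99.3), a contactin ligand, stayed within 2-fold, with changes that turn positive relative to the median record, and FGFR1, an FGF receptor that L1 and NCAM engage, went from 114 to 46.6, a change of -1.29 or, relative to that record, -0.69.

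Of 11 partners of the intracellular tail, 6 were higher and 3 lower, and of the 9 averaging 1 FPKM or more 4 and 3, or 5 and 2 relative to the median record. ANK2 went from 10.0 to 35.9 FPKM and ANK3, the ankyrin of the initial segment, from 10.4 to 29.0 after 42.5 on day 11, the same day as the CNTN2 peak. DCX went from 5.46 to 88.0, and SPTAN1, a spectrin, from 68.3 to 120, past 2-fold only relative to the median record. The 3 lower ones were the relatives EZR, MSN and RDX, which link membranes to actin, with MSN at 118 and 30.9 and RDX, 2-fold lower only as deposited, at 71.3 and 25.0. Ankyrins and the EZR, MSN and RDX proteins both bind L1 tails. All 3 ankyrins of the list were at least 2-fold higher, against 7.57% of coding records averaging 1 FPKM or more. ANK1 (from 0.375 to 1.21) averaged 0.84 FPKM, below that filter.

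Of 3 genes listed for polysialic acid, ST8SIA2 went from 16.7 to 33.4 FPKM (2.01-fold) and ST8SIA3 from 0.00979 to 1.63. Both were at least 2-fold higher on the log2 scale although ST8SIA3 averaged under 1 FPKM, and ST8SIA4 went from 11.0 to 7.14. NCAM1, the main acceptor, was 14.3-fold higher over the same days. Of 9 secreted or matrix ligands, 4 were higher and 3 lower, and of the 6 averaging 1 FPKM or more 2 and 3. Relative to the median record only TNC was 2-fold lower. NCAN, or neurocan, a proteoglycan that binds L1 and NCAM, went from 4.22 to 55.0 FPKM, whereas the ligand MDK went from 616 to 271, VCAN from 88.0 to 29.8 and PTN from 360 over 99.8 on day 2 to 372. None of the 3 proteases that shed these molecules and none of 6 signalling partners differed 2-fold between day 0 and day 18 as deposited, and relative to the median record CASK, a scaffold protein, did (1.32). ADAM10 (34.4 and 17.4), ADAM17 (18.8 and 12.7) and BACE1 (10.8 and 13.9) are the proteases. GAP43, a growth cone protein that works with NCAM, had 193 FPKM on day 0, 55.7 on day 1 and 173 on day 18, a low on day 1 that NRCAM shows more weakly, while the kinase FYN (80.6 and 71.5) and PTPRA (60.7 and 53.7, in a merged record) were nearly level. The changes of GAP43, FYN, PTPRA and ADAM17 are below 0 as deposited and above 0 relative to the median record.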

How the data were processed

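PolyA RNA of the 20 samples was read as paired ends. The authors used TopHat2 to align reads to hg19, Cufflinks for transcripts and Cuffdiff2 for expression, with default options, whose library type is unstranded, and versions are not given in the sources used here. The deposited FPKM values hold 1 estimate per gene record and day over that day's cultures. The deposited coordinates of exons are of the unit bases. Columns with values of single samples: 0. The authors' fold changes, test statistics, p and q values between adjacent days were not used. Matrix FPKM departed from the values repeated in that table for 4 records, of which 0 were members.

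Values were compared as log2(FPKM + 0.1), which understates changes of low genes, over coding records with a mean of at least 1 FPKM, and called at 2-fold. No test could be fitted. Alternatives were pseudocounts, filters, sums over records, recentring on the median and, added later, 4-fold and day 11. Named genes are all members, partners from lists with the 3 highest means in each, and the 3 records with the highest Pearson r to each member. Members and lists were chosen with earlier results of these data known. Groups came from the sample labels. Scripts used Python 3.11.15, pandas 2.3.3 and numpy 2.4.6 and were tested on simulated data.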

Additional observations from a re-analysis of the deposited data

How the results depend on the processing

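Of 51 recomputed counts and median changes 47 stayed within 1.5 times the reported count, or within a 1.5-fold difference for the median change, and none was reversed. Those 51 include sums over records and the leaving out of merged records, which could change nothing here. Each gene had 1 coding record and none was merged. The same holds for the 50 changes of single genes below. Relative to the median coding record, 1 member in place of 0 was at least 2-fold higher on day 1, the members' median change to day 18 was 2.45 in place of 1.85, and 6 members in place of 3 had a step of at least 2-fold, which follows from the shift of the median itself. At 4-fold, added after the data were seen, 4 members were higher on day 18 in place of 7 of the 9 that averaged 1 FPKM or more. Of 50 recomputed changes of single genes 48 stayed on the same side of 2-fold, the others being CNTN3 at 0.48 with a pseudocount of 1 and L1CAM at 1.31 relative to the median. Sizes moved more widely, with CHL1 at 3.40 in place of 4.70 with a pseudocount of 1 and NRCAM at 0.60 in place of -0.00 relative to the median. No paired analysis was possible because the files hold 1 value a day, and for the same reason limma with a replicate block and fits without single replicates were not run. Depth is unknown for all FPKM values, so no limit of detection could be set.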
